A study of Mus musculus with 6 samples.

Results

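UFMylation is the attachment of UFM1, a small ubiquitin-like protein, to other proteins. Here 6 of its genes, chosen by name, were followed through a knockdown of YY1 in mouse glioma cells: the modifier gene Ufm1, the conjugating enzyme gene Ufc1, the ligase genes Ufl1, Ddrgk1 and Cdk5rap3, and the protease gene Ufsp2. All 6 were present among the 24982 gene symbols counted, and all 6 were among the 12148 genes with enough counts to test. Ufc1 had been picked because it was high after the knockdown in these same samples, so its values are a description and no test of it is given. The other 5 were taken as its pathway partners.

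The 2 groups of KMWT1 cells, a mouse glioma cell line, were compared by RNA-seq. The 3 YY1 siRNA samples, numbered 4, 5 and 6, had received a SmartPool siRNA mixture against YY1. The 3 control siRNA samples, numbered 1, 2 and 3, had received a control siRNA, and RNA of both groups was taken 48 hours after transfection. Both groups are thus 1 cell line at 1 time, without further treatment named in the labels. Separate cultures are not named in the labels, so p-values here rest on a spread among samples that could be purely technical.

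Conjugation of UFM1 runs through an enzyme chain like that of ubiquitin. The proteases UFSP1 and UFSP2 trim the UFM1 precursor, UFC1 (the E2) carries the activated modifier, and UFL1 (the E3) passes it on at the endoplasmic reticulum (ER) membrane, together with DDRGK1, which holds UFL1 there, and CDK5RAP3. The best known target is the ribosomal protein RPL26 on ribosomes docked at the ER, and the pathway is known for its part in ER protein quality control and ER-phagy, the removal of ER by autophagy. YY1, a DNA-binding zinc finger protein, is known as both an activator and a repressor of transcription.

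Counts in genes ranged from 15738457 to 19210104 in YY1 siRNA samples and from 18680762 to 20644057 in control siRNA samples. Levels are given in CPM, counts scaled to the size of each library, with TMM factors that set the samples to a common scale. Yy1 itself averaged 79.2 ± 1.86 CPM in YY1 siRNA samples and 127 ± 0.826 CPM in control siRNA samples (SD, n = 3 each), or 0.623 of control (95% interval 0.565 to 0.686; edgeR adjusted p 0.00154). It was the only gene of the 12148 with an edgeR p under 0.05 after adjustment over all of them, 0.00823% of genes. Sample 6 had the fewest counts and is the one whose table is not marked as combined. Of the 8 glioma and neural stem markers, Sox2, Nes, Vim and Cd44 were above 10 CPM in every sample, while Olig2, Gfap, Slc1a3 and Fabp7 were under 1 CPM in all, Olig2 and Fabp7 with 0 counts. All 4 microglia and macrophage markers were under 1 CPM in all samples, with a summed level of 0.0653 to 0.210 CPM in YY1 siRNA samples and 0.192 to 0.423 CPM in control siRNA samples. Of the neuron, oligodendrocyte and endothelium markers, 3 of 4 in each list were under 1 CPM in all samples. The neuron list summed to 5.29 to 5.45 CPM in YY1 siRNA samples and 5.15 to 6.54 CPM in control siRNA samples, and the oligodendrocyte list to 2.88 to 3.08 and 2.26 to 3.07 CPM in the same order. The endothelium list, nearly all of it Cdh5, summed to 43.2 to 51.2 CPM in YY1 siRNA samples and 50.6 to 57.7 CPM in control siRNA samples, with Cldn5 at 0. The 4 fibroblast and pericyte markers summed to 804 to 1024 CPM in YY1 siRNA samples and 954 to 1114 CPM in control siRNA samples. The part of such cells in the results was not tested. In RNA from whole cultures, fewer cells with a transcript and less of it per cell cannot be told apart.

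Ufc1 is a short gene on the minus strand of chromosome 1, at chr1:171288563-171295024 (mm10, ENSMUSG00000062963.10). It encodes the only E2 of the UFM1 system. No other annotated gene overlaps it, and no transcript of another gene matched its coding transcripts at 90% identity over 100 bases. The stretch around its transcription start is shown first, because it stood apart from those of its partners in base composition. The letters run from 250 bases before to 50 bases after the start, 5′ to 3′, from RefSeq on mm10 (minus strand, chr1:171294953-171295252), with each CG dinucleotide in capitals. The Ufm1 stretch (minus strand, chr3:53863758-53864057) is set below it for comparison.
Ufc1: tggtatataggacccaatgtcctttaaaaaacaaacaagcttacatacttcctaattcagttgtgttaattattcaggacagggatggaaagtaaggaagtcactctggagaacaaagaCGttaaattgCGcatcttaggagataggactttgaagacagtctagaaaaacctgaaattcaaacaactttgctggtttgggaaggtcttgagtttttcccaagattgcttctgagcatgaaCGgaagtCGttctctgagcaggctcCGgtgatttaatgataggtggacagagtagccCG
Ufm1: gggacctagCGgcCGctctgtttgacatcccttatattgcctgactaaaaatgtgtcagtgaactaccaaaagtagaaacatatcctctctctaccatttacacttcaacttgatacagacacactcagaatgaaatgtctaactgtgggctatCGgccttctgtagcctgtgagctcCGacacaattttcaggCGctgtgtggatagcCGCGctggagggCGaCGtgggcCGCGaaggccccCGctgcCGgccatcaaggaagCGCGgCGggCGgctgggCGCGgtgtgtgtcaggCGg

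The Ufc1 stretch held 41.0% G and C and 6 CG dinucleotides. The windows of the other 5 members held 55.7% to 62.3% G and C and 16 to 29 CG dinucleotides. Over 12216 such windows of 9576 tested genes, the medians were 61.0% and 21, and 2.29% of windows had as little G and C as that of Ufc1. As few CG dinucleotides were found in 14.3% of windows. Both strands of the windows were searched for AANATGGCG, the core of the YY1 binding motif, in which N is any base. None of the 6 members had it in this window, against 5.04% of all windows. The shorter AANATGG, which reads CCATNTT on the other strand, was present in 1 member, Ddrgk1, and in 1828 of the 12216 windows. AANATGGCG contains AANATGG. Neither the ER stress response element (0.131% of all windows) nor TGACGTGG, an element bound by the ER stress factor XBP1 (0.860%), was found in a member.

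Further into the gene, past the end of that window, a match to AANATGGCG lay in the orientation of the gene, on the minus strand, 177 bases after the RefSeq start of Ufc1. Not every match in the gene is given here. This one is printed in capitals from transcript Ufc1-202, in which the 30-base stretch is unspliced.
Ufc1 match, chr1:171294806-171294835: tcccacagtaAAGATGGCGacgccgtgagt
Of the 5 annotated Ufc1 transcripts, 4 contain this match. In 2 of these, annotated as a nonsense-mediated decay transcript and a retained intron transcript, it lies within the first 100 bases. The motif was present in the first 100 bases of a transcript for 6.84% of 12058 tested genes, and of the members only Ufc1 had it there. The counts are per gene, so the use of each start was not measured. A match is a run of letters and not a measured binding site.

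Ufc1 was higher in every YY1 siRNA sample than in any control siRNA sample, the only member of the 6 with such a gap, as 7.36% of all tested genes were. Since Ufc1 was picked on this contrast, nothing is read from that count. It had 76.9, 73.6 and 97.3 CPM in YY1 siRNA samples 4, 5 and 6, against 45.9, 52.4 and 54.8 CPM in control siRNA samples 1, 2 and 3. The means were 82.6 ± 12.8 CPM in YY1 siRNA samples and 51.0 ± 4.57 CPM in control siRNA samples (SD, n = 3 each). The fitted ratio was 1.62 (log2 fold change 0.69, SE 0.11, 95% interval 0.45 to 0.93), at rank 54 of 12148 genes ordered by log2 fold change from the highest. Picking a gene for its rise tends to raise such an estimate. The interval takes no account of the picking and is not a test. Sample 6 was the highest of the YY1 siRNA samples. Its log2 distance from the control mean was 0.93, against 0.59 in sample 4 and 0.53 in sample 5. Without sample 6 the log2 fold change was 0.55 (SE 0.081). The lowest count behind these values, 955, carries a counting error of 3.24%, well under the spread between samples.

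**Figure D1:**
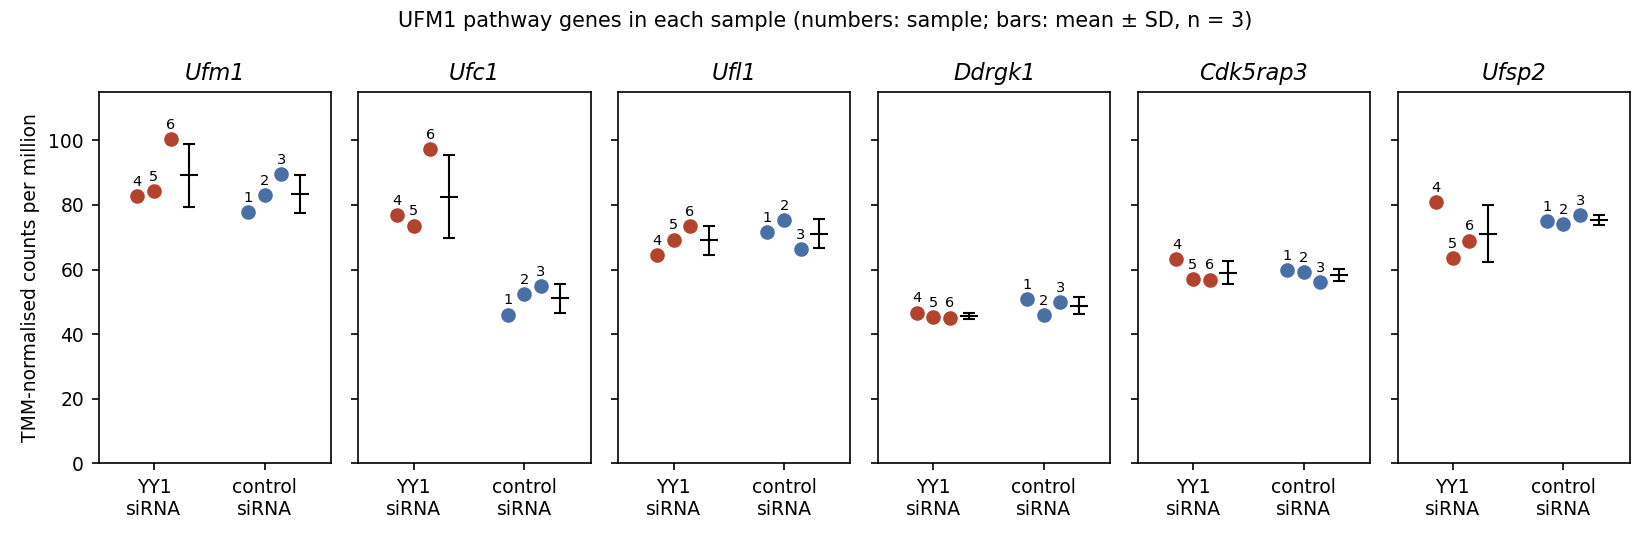
Levels of the 6 UFM1 pathway genes in TMM-normalised CPM (vertical axis, from 0), with YY1 siRNA samples left and control siRNA samples right in each panel. Points are samples, marked with their numbers, and bars show the mean ± SD (n = 3). Ufc1 lies at 73.6 to 97.3 CPM in YY1 siRNA samples and 45.9 to 54.8 CPM in control siRNA samples, while the groups overlap for each of the other 5 genes.

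The modifier that UFC1 carries did not show such a gap. Ufm1 (chr3:53853376-53863830) had 82.8, 84.3 and 100.4 CPM in YY1 siRNA samples 4, 5 and 6, against 77.8, 83.1 and 89.6 CPM in control siRNA samples 1, 2 and 3. The groups overlapped, and sample 6 was the highest of all, as it was for Ufc1. The log2 fold change was 0.094 (SE 0.087, 95% interval -0.096 to 0.28, edgeR adjusted p 0.689), and it was -0.0054 without sample 6. Transcripts of 2 other genes, a processed pseudogene and an unreviewed gene model, match Ufm1 at 93.1% and 97.7% identity over 260 and 471 bases. Neither is listed in the count tables, and whether reads were lost or gained through them was not tested.

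Among the ligase genes, Ufl1 (chr4:25248600-25281821), the E3 itself, had 64.4, 69.2 and 73.4 CPM in YY1 siRNA samples and 71.6, 75.3 and 66.3 CPM in control siRNA samples. The groups overlapped (log2 fold change -0.043, SE 0.077, edgeR adjusted p 0.847). An antisense transcript gene, Gm11906, covers 22500 bases of the Ufl1 locus, introns included, and is not among the gene symbols counted. Without a stated strand setting reads of the pair may not be told apart, and their part in the Ufl1 counts was not tested. Ddrgk1 (chr2:130653960-130664659), the membrane anchor of the ligase, was at 46.6, 45.2 and 45.05 CPM in YY1 siRNA samples, against 50.9, 45.8 and 49.8 CPM in control siRNA samples. YY1 siRNA samples 5 and 6 were the lowest of all, and sample 4 lay above control sample 2. The log2 fold change was -0.098 (SE 0.071, 95% interval -0.25 to 0.057, edgeR adjusted p 0.604). Cdk5rap3 (chr11:96907426-96916496), the adaptor subunit, had 63.1, 57.0 and 56.9 CPM in YY1 siRNA samples and 59.8, 59.1 and 56.1 CPM in control siRNA samples. Its fitted change was close to 0 at 0.016 (SE 0.072, edgeR adjusted p 0.942), and scaling by library size alone put it at -0.0054.

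Ufsp2 (chr8:45975528-45996958), the protease that also removes UFM1 from its targets, had 80.9, 63.5 and 68.9 CPM in YY1 siRNA samples 4, 5 and 6. The control siRNA samples lay close together at 75.0, 74.0 and 76.9 CPM, so YY1 siRNA sample 4 was above all of them and samples 5 and 6 below. The log2 fold change was -0.082 (SE 0.087, 95% interval -0.27 to 0.11, edgeR adjusted p 0.731). With offsets for length and GC content it was -0.24 (SE 0.12, edgeR adjusted p 0.410), below the other settings tried, and without YY1 siRNA sample 4 it was -0.18. The last 57 bases of the gene are shared with the convergent gene Ankrd37, which had 4430 to 5054 counts per sample, and the part of such shared reads in Ufsp2 was not tested.

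Of these 5 partners of Ufc1, 0 passed the edgeR test over all genes, against 0.00823% of all tested genes. An unadjusted p under 0.05 was found for 0 of them, against 10.8% of all tested genes. DESeq2 and limma-voom also called 0 of them. Their median log2 fold change was -0.043, against 0.00070 over all genes tested. A p above the threshold does not show equal levels, but the 95% intervals of this fit give bounds, which other settings would shift: the lowest was 0.829-fold, for Ufsp2, and the highest 1.22-fold, for Ufm1. In 0 of the 5 did the groups fail to overlap, against 16.3% of all tested genes.

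**Figure D2:**
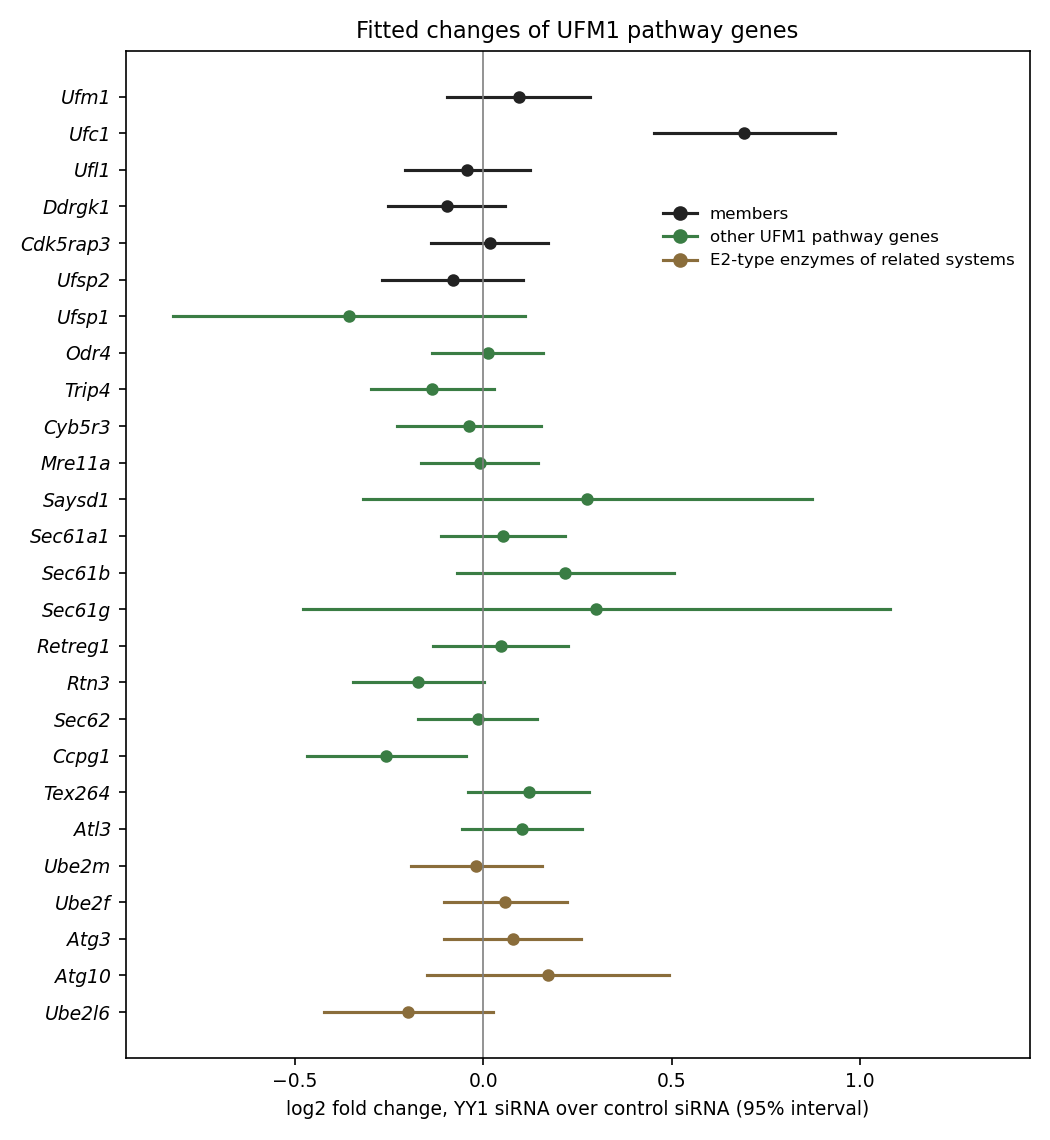
Log2 fold changes, YY1 siRNA over control siRNA, from the edgeR fit (points) with 95% intervals (lines). The 6 members are black and E2-type enzyme genes of related systems are brown. Green marks other tested genes linked to UFM1, with translocon and ER-phagy receptor genes among them. Ufc1, which was picked for its difference, lies at 0.69, and the intervals of the other 5 members include 0. The interval of Ufc1 takes no account of the picking.

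Set against its partners within each sample, Ufc1 took a larger share of the members' counts after the knockdown. It made up 18.5%, 18.7% and 22.0% of the summed CPM of the 6 members in YY1 siRNA samples 4, 5 and 6, against 12.1%, 13.5% and 13.9% in control siRNA samples 1, 2 and 3. The sum of the other 5 was 334 ± 13.1 CPM in YY1 siRNA samples and 337 ± 1.85 CPM in control siRNA samples (SD, n = 3 each). The ratio of Ufc1 to Ufm1, in CPM of RNA without correction for length, was 0.928, 0.873 and 0.969 in YY1 siRNA samples. In control siRNA samples it was 0.590, 0.631 and 0.611. It does not give the balance of the 2 proteins. This ratio spread less between samples than Ufc1 itself, since Ufm1 was also highest in sample 6. Within each sample a scaling factor cancels from these ratios. They carry the difference by which Ufc1 was picked and are given without a test.

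**Figure D3:**
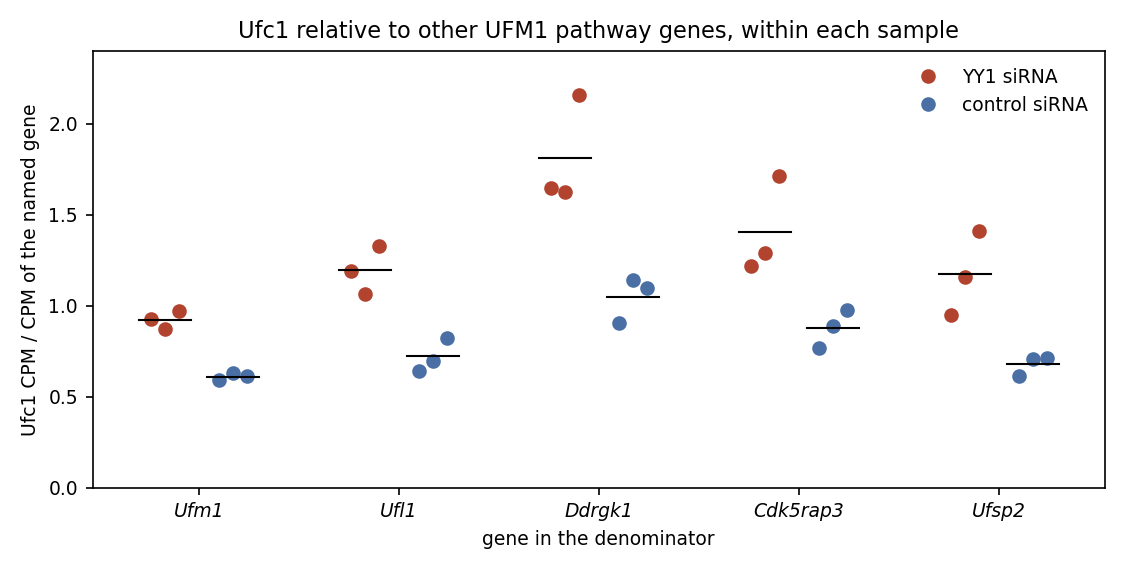
Ratio of the Ufc1 level to that of each named gene (vertical axis, CPM over CPM, from 0), with 1 point per sample and lines at the group means. For all 5 denominators the 3 YY1 siRNA samples (red, left of each pair) lie above the 3 control siRNA samples (blue), with the Ufm1 ratio at 0.873 to 0.969 against 0.590 to 0.631.

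Compared per length of transcript, Ufc1 had the highest mean of the 6 in both groups. It stood apart only in YY1 siRNA samples, in which it was picked as high. Per kilobase of merged annotated exons, it stood at 39.9 ± 6.20 CPM in YY1 siRNA samples and 24.7 ± 2.21 CPM in control siRNA samples (SD, n = 3 each). Ddrgk1 followed with 21.9 ± 0.410 CPM per kilobase in YY1 siRNA samples and 23.4 ± 1.27 in control siRNA samples. In control siRNA samples the ranges of these 2 genes overlapped (22.2 to 26.5 for Ufc1, 22.0 to 24.4 for Ddrgk1), whereas in YY1 siRNA samples they did not (35.6 to 47.0 and 21.6 to 22.4). Below them came Ufsp2 (16.1 ± 2.01 CPM per kilobase in YY1 siRNA samples, 17.1 ± 0.329 in control siRNA samples), Cdk5rap3 (15.5 ± 0.941 and 15.3 ± 0.510, in the same order) and Ufm1 (14.97 ± 1.64 and 14.0 ± 0.988). The ranges of these 3 overlapped in YY1 siRNA samples, while in control siRNA samples Ufsp2 lay above the other 2, which overlapped. Ufl1 was lowest, at 12.1 ± 0.784 CPM per kilobase in YY1 siRNA samples and 12.5 ± 0.786 in control siRNA samples, and in control siRNA samples its range overlapped that of Ufm1 (11.6 to 13.19 and 13.06 to 15.03). With the longest coding transcript as the length, the mean of Ufc1 again came first, at 82.0 ± 12.7 and 50.7 ± 4.54 CPM per kilobase in YY1 siRNA and control siRNA samples. Ufsp2 came next, before Ddrgk1, at 43.4 ± 5.41 and 45.9 ± 0.885 CPM per kilobase in the same order. In control siRNA samples the mean ± SD spans of Ufc1 and Ufsp2 overlapped. Which transcript ends the cells used was not measured, so this order is approximate.

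Further genes linked to the pathway were followed, 17 in number. They were enzymes and partners, reported targets and readers, translocon subunits and ER-phagy receptors. None of the 16 tested passed over all genes, against 0.00823% of all tested genes. An unadjusted p under 0.05 was found for 1, against 10.8% of all tested genes. Their median log2 fold change was 0.028. Odr4, a membrane protein gene whose product holds UFSP2 at the ER, was at 59.5 ± 1.63 CPM in YY1 siRNA samples and 59.1 ± 2.22 CPM in control siRNA samples (SD, n = 3 each), and it shares 243 bases with Tpr on the other strand. Ufsp1, the other protease gene, was near the lower limit of testing, with 1.43 ± 0.223 CPM in YY1 siRNA samples and 1.85 ± 0.228 CPM in control siRNA samples (edgeR adjusted p 0.539).

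Among the reported targets and readers of UFM1, Rpl26 was listed at 0 in all 6 samples, which with a floor of 3 counts allows at most 0.144 to 0.196 CPM. Transcripts of 13 other genes, all processed pseudogenes, match Rpl26 at 90% identity or more. The part of such copies in the count of 0 was not tested, and the value says nothing about expression of this ribosomal protein gene. Cyb5r3, a cytochrome b5 reductase gene, was at 824 ± 59.6 CPM in YY1 siRNA samples and 845 ± 41.3 CPM in control siRNA samples. Trip4, the transcriptional coactivator ASC1, had 30.3 ± 1.47 CPM in YY1 siRNA samples and 33.3 ± 0.782 CPM in control siRNA samples, and its groups did not overlap (edgeR adjusted p 0.516). Mre11a, a DNA break repair nuclease gene, stood at 36.1 ± 1.17 and 36.3 ± 0.813 CPM in YY1 siRNA and control siRNA samples, and Saysd1, a sensor of UFMylated ribosomes, at 2.12 ± 0.730 and 1.73 ± 0.413 CPM.

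For the SEC61 translocon, the ER channel next to which ribosomes are UFMylated, Sec61a1 had 251 ± 20.0 CPM in YY1 siRNA samples and 242 ± 5.57 CPM in control siRNA samples. Sec61b had 76.7, 75.6 and 107 CPM in YY1 siRNA samples 4, 5 and 6, against 71.4, 72.6 and 78.7 CPM in control siRNA samples 1, 2 and 3. As with Ufc1 and Ufm1, sample 6 held its highest value, but here samples 4 and 5 lay within the control range. Sec61g had 2.65 ± 1.46 CPM in YY1 siRNA samples and 2.08 ± 0.278 CPM in control siRNA samples. Transcripts of 12 other genes in the annotation match Sec61g at 90% identity or more, so its level is uncertain. Of the ER-phagy receptor genes, Ccpg1 was the 1 gene with an unadjusted p under 0.05, at 17.8 ± 0.851 CPM in YY1 siRNA samples and 21.3 ± 2.34 CPM in control siRNA samples (unadjusted p 0.0211, edgeR adjusted p 0.388). Rtn3 was at 149 ± 14.0 CPM in YY1 siRNA samples and 168 ± 7.56 CPM in control siRNA samples (edgeR adjusted p 0.462). Tex264 had 93.6 ± 5.76 and 86.2 ± 4.59 CPM, Atl3 106 ± 8.46 and 98.7 ± 1.67 CPM, Sec62 203.8 ± 10.8 and 206 ± 10.0 CPM, and Retreg1 30.5 ± 1.81 and 29.5 ± 1.75 CPM, each in YY1 siRNA and control siRNA samples in that order. Over the 16 genes, the groups did not overlap in 3, all lower in YY1 siRNA samples (Trip4, Ccpg1 and Ufsp1), and 8.91% of all tested genes were lower in this way.

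Other ubiquitin-like systems use E2-type enzymes of their own, and 5 of their genes are given here. Since Ufc1 was picked for its difference, its larger change is not read as a contrast with them. Ube2m and Ube2f, the E2 genes of NEDD8, were at 158 ± 15.5 and 65.4 ± 5.17 CPM in YY1 siRNA samples, against 160 ± 6.77 and 62.7 ± 1.85 CPM in control siRNA samples (SD, n = 3 each). Atg3 and Atg10, which serve the autophagy modifiers LC3 and ATG12, had 28.0 ± 2.29 and 5.60 ± 0.782 CPM in YY1 siRNA samples, against 26.6 ± 0.795 and 4.95 ± 0.616 CPM in control siRNA samples. Ube2l6, the E2 of the interferon-induced modifier ISG15, had 24.7 ± 2.78 CPM in YY1 siRNA samples and 28.3 ± 2.87 CPM in control siRNA samples. The highest log2 fold change of the 5 was 0.17, for Atg10, with a 95% interval of -0.15 to 0.49.

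Over all 30 genes of these systems, 0 passed the edgeR test, against 0.00823% of all tested genes. The median log2 fold change was 0.045. At an unadjusted p under 0.05 there were 4 higher and 1 lower, against 5.38% and 5.46% of all tested genes. The 5 are named here after their values were seen. Uba3 and Nae1 encode the partner subunits of the NEDD8 E1. Uba3 had 195, 187 and 222 CPM in YY1 siRNA samples, against 165, 166 and 175 CPM in control siRNA samples (edgeR adjusted p 0.296). Nae1 had 43.5 ± 5.11 CPM in YY1 siRNA samples and 37.3 ± 1.11 CPM in control siRNA samples (edgeR adjusted p 0.415). The modifier genes Urm1 (34.1 ± 1.96 and 27.0 ± 3.63 CPM in YY1 siRNA and control siRNA samples, edgeR adjusted p 0.265) and Map1lc3a (49.6 ± 2.68 and 43.5 ± 2.49 CPM, edgeR adjusted p 0.407) were the other 2 on the higher side. Usp18, which removes ISG15, was at 26.1 ± 1.16 CPM in YY1 siRNA samples and 33.0 ± 6.48 CPM in control siRNA samples (edgeR adjusted p 0.370).

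ER stress genes were followed because the UFM1 pathway works at the ER. Of 8 tested, 0 passed the edgeR test, against 0.00823% of all tested genes. At an unadjusted p under 0.05, 1 was higher, against 5.38% of all tested genes. The median log2 fold change was 0.023. The chaperone gene Hspa5 had 1874 ± 101 CPM in YY1 siRNA samples and 1828 ± 28.4 CPM in control siRNA samples (SD, n = 3 each). The stress factor genes Xbp1 and Ddit3 had 157 ± 9.25 and 162 ± 12.9 CPM in YY1 siRNA samples, against 159 ± 6.19 and 156 ± 11.2 CPM in control siRNA samples. The 1 gene was Dnajb9, an ER co-chaperone gene named after its values were seen, at 67.3 ± 6.78 CPM in YY1 siRNA samples and 56.6 ± 1.80 CPM in control siRNA samples (edgeR adjusted p 0.317).

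The genes next to Ufc1 on chromosome 1 were compared with it, to show levels along the same stretch. Usp21, a deubiquitinase gene on the same strand, begins its annotation 571 bases past the 3′ end of Ufc1. It had 36.5, 36.4 and 33.4 CPM in YY1 siRNA samples, against 33.7, 32.4 and 33.5 CPM in control siRNA samples (log2 fold change 0.096, 95% interval -0.066 to 0.26, edgeR adjusted p 0.626). Ppox, a haem synthesis enzyme gene, was at 49.9 ± 4.69 CPM in YY1 siRNA samples and 43.9 ± 4.51 CPM in control siRNA samples (edgeR adjusted p 0.483). B4galt3 was at 32.7 ± 0.935 and 34.8 ± 2.03 CPM in YY1 siRNA and control siRNA samples. On the other side the nearest tested gene, Dedd, lies 34120 bases away, at 45.7 ± 2.75 and 44.5 ± 1.00 CPM, followed by Nit1 (29.1 ± 0.450 and 30.0 ± 1.97 CPM) and Pfdn2 (66.4 ± 4.83 and 65.7 ± 0.265 CPM), in the same order of groups. None of the 6 neighbours passed the test, which only 0.00823% of all tested genes passed. Their log2 fold changes ran from -0.091 to 0.19.

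**Figure D4:**
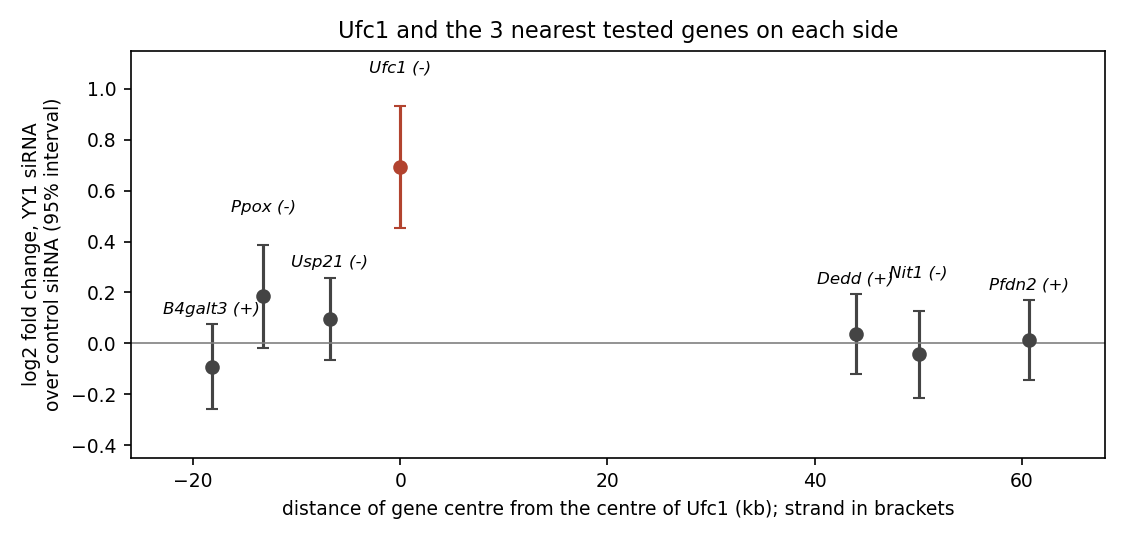
Log2 fold change, YY1 siRNA over control siRNA, of Ufc1 (red) and the 3 nearest tested genes on each side (grey), against the distance of each gene's centre from that of Ufc1 in kilobases, with 95% intervals. Ufc1, which was picked for its difference, lies at 0.69 and its 6 neighbours between -0.091 and 0.19. The interval of Ufc1 takes no account of the picking.

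Genes were also ordered by how closely their levels followed Ufc1 across the 6 samples. Because Ufc1 was picked for its gap between groups, genes without such a gap could hardly come first. Nothing is therefore read from the place of its partners. By Pearson correlation of log2 CPM, the 5 closest of 12147 genes were Sdhaf1 (r = 0.991), Rabl6 (0.991), Snapc5 (0.990), Slc26a11 (0.989) and B3galnt1 (0.988). These are the highest of 12147 values, each from 6 points. All 6 points share their libraries and the split into groups, so these values only describe likeness in shape. Their differences were smaller than that of Ufc1, which was picked for its difference. Sdhaf1 is an assembly factor gene of succinate dehydrogenase. It had 5.87, 5.84 and 6.53 CPM in YY1 siRNA samples, against 4.62, 5.04 and 5.24 CPM in control siRNA samples. The fitted ratios of the 5 genes ran from 1.06 for Rabl6 to 1.28 for Snapc5. Among the members, r with Ufc1 was 0.712 for Ufm1, -0.122 for Ufl1, -0.366 for Ufsp2, -0.0745 for Cdk5rap3 and -0.749 for Ddrgk1.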

How the data were processed

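RNA-seq was measured in 3 YY1 siRNA and 3 control siRNA samples of KMWT1 cells. The authors deposited 1 table of raw counts per gene symbol for each sample and without normalization. The tools named in the submitters' processing notes are STAR (2.6.1a) and edgeR (3.30.0), and the build is mm10. Not given in the sources used here are the counting program, its annotation and strand setting, and what was combined in 5 of the tables. The 2 rows that name no gene (7.87% to 11.3% in no gene, 1.01% to 1.15% ambiguous) were left out.

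The members and gene lists were chosen with earlier results of these data known. Deposited counts were tested in edgeR (4.0.16, under R 4.3.3) by its two-sided quasi-likelihood test, with filterByExpr, TMM and robust dispersion, and Benjamini-Hochberg adjustment over 12148 genes at 0.05. Errors are SD over n = 3. Pairs of samples within a group differed by more than counting noise, with chi-square over its degrees of freedom at 3.07 to 32.2. Control siRNA pairs were at 3.07 to 10.7 and YY1 siRNA samples 4 and 5 at 11.2. YY1 siRNA sample 6 was at 32.2 with sample 4 and 23.7 with sample 5. A count of 3 equals 0.144 to 0.196 CPM, a floor for counting error only.

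Genes named were the 6 members, Yy1, the lists given, 3 neighbours on each side of Ufc1 and the 5 genes most like it. Alternatives were RLE, library size alone, no filter, at least 1 CPM in 3 samples, offsets for length and GC (mgcv 1.9.3), DESeq2 1.42.0, limma-voom (limma 3.58.1) and leaving out each sample. Positions and transcripts are from GENCODE M21 (mm10), which held 98.0% of the symbols, and start-site sequences from RefSeq (mm10), which held all 6 members. A few results of the listed genes are not reported here. The test was also run on simulated counts, drawn independently with the fitted spread. That run cannot show whether the spread among samples was technical.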

Additional observations from a re-analysis of the deposited data

Results flagged for a closer look

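Counts that fell in no gene, a quantity outside the comparisons above, stood apart in part of the knockdown group. YY1 siRNA sample 5 had 10.7% of its counts there. For YY1 siRNA sample 6 the figure was 11.3%, whereas the control siRNA samples had 7.99% to 9.03%. In YY1 siRNA sample 4 it was 7.87%. Any link between this share and the level of Ufc1 was not tested.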

How the results depend on the processing

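The log2 fold change of Ufc1 lay between 0.65 (length and GC offsets) and 0.70 under the 7 other settings. Without each sample in turn it lay between 0.55, without YY1 siRNA sample 6, and 0.77. Each lay closer to the main value of 0.69 than the SD of single samples within groups (0.18). That SD is a wider scale than the SE of the main value (0.11). Of the 5 partners of Ufc1, 0 passed under any setting or without any sample. Ufsp2 and Ddrgk1 stayed below 0 throughout. Ufsp2 ran from -0.24 (length and GC offsets) to -0.074 over the other settings and from -0.18 to -0.0061 without each sample, and Ddrgk1 from -0.13 to -0.090 and from -0.14 to -0.067. Cdk5rap3 turned to -0.0054 with library size alone and ran from -0.029 to 0.041 without each sample, Ufm1 from -0.0054 to 0.15 and Ufl1 from -0.095 to 0.011. No gene of the other UFM1 list or of the other ubiquitin-like systems passed under any setting. Over all genes, changed genes numbered 7 with library size alone, 83 with no filter on low counts, 19 with DESeq2 and 12 with offsets for length and GC. Leaving out single samples gave 1 to 41: YY1 siRNA sample 4 left out gave 41, YY1 siRNA sample 6 gave 3, and control siRNA sample 3 gave 2. The cause was not tested. Yy1 passed throughout (log2 fold change -0.71 to -0.62, and -0.70 to -0.67 without each sample). No paired analysis was made because the labels state no pairing of samples.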
